A study of Mus musculus with 36 samples.

Results

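Introns of 60 to 120 bases are the shortest common introns of the mouse, and their removal is described here across cell types, Zrsr2 genotypes and Zrsr1 hairpins. They were taken by annotated length alone from the 219945 introns listed for every library, which gave 15755 introns, against 121713 introns of 500 to 5000 bases that served as the longer comparison class. An intron was kept in a set of libraries when at least 50 reads supported it in every library of the set. That left 7276 of the short introns in the progenitor libraries, 8353 in fibroblasts and 6344 in cultured bone marrow cells, with 43424, 50657 and 33043 of the longer class.

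An intron is cut out after the spliceosome has paired the splice sites at its ends, and in very short introns the sites are held to be paired across the intron, while around long introns they are paired across the neighbouring exons. Most introns are removed by the major spliceosome. A small minority, the U12-type introns, have different splice site and branch point sequences and are removed by the minor spliceosome, in which ZRSR2 contacts the 3′ splice site, and Zrsr1 is the closest relative of Zrsr2 in the mouse. An intron left in a polyadenylated transcript usually keeps it in the nucleus or adds an early stop codon, and hematopoietic cells are known for regulated retention of introns in their mature RNA.

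The Zrsr2-deficient (KO) libraries and their wild-type (WT) counterparts came from C57BL/6 mice. Megakaryocyte erythroid precursors (MEP), granulocyte monocyte precursors (GMP) and common myeloid precursors (CMP) were sorted from 3 KO and 3 WT male littermates, and murine embryonic fibroblasts (MEF) were prepared from 3 KO and 3 WT male embryos, all with a TruSeq kit. Lineage-negative, Kit-positive (Lin-Kit+) bone marrow cells of KO or WT mice were cultured and carried a hairpin against Zrsr1 (sh1 or sh10) or a control hairpin, in experiments 1 and 2, with a NEBNext Ultra kit. Bulk samples of this kind cannot separate a change in the cells present from a change within a cell.

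The measure of retention is the MSI value of the deposited tables, in percent. It equals 100 times the reads that cross either end of an intron divided by those reads plus 2 times the reads spliced across it, so it is near the share of transcripts that still hold the intron. Spliced reads numbered 44083233 to 84832431 per progenitor library, 43514139 to 61124920 per MEF library and 30481450 to 43345548 per Lin-Kit+ library, and short introns held 12.8% to 13.7% of them in progenitors. Reads across intron ends were far fewer, at 2465950 to 4620784, 1508406 to 1983413 and 1150967 to 1923401 per library in the 3 sets. Reads spliced over Zrsr2 intron 10 were 0 or 1 in each KO progenitor library and 82 to 251 in WT progenitors, 0 to 3 in KO and 58 to 97 in WT MEF, and 0 to 7 in KO and 15 to 85 in WT Lin-Kit+ libraries. Spliced reads summed over fixed marker lists were highest in the labelled progenitor type, with 4420 to 5330 CPM (counts scaled to equal library totals) for the MEP list in WT MEP (122 to 184 in WT GMP, 1420 to 1950 in WT CMP), and KO libraries had the same order. Within the lists, Itga2b of the MEP list was lowest in WT MEP (median 22.3 CPM, against 123 in WT GMP and 689 in WT CMP), Myb of the CMP list was higher in WT GMP (915) than in WT CMP (639), and Cebpa of the CMP list has no listed intron and was not measured. KO GMP library 1 stood apart in retention, with a median MSI over short introns of 1.61%, against 2.01% to 2.48% in the other 17 progenitor libraries. All 6 libraries of Lin-Kit+ experiment 2 lay at 0.966% to 1.34%, below the 1.88% to 2.39% of experiment 1.

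Sequences could be read only where an exon of another GENCODE M21 transcript spans the intron, which held for 2198 of the 15755 short introns. The 5 shown first begin like U12-type introns, the kind that the minor spliceosome and its subunit ZRSR2 act on. Their first 8 bases equal GTATCCTT or differ from it at 1 base. Capitals mark those bases, the best match to the U12 branch motif TCCTTAAC within the last 40 bases, and the final AG, on mm10. They are Rfx5 intron 7 of 10 (chr3:94956607-94956720, plus strand), Edc4 intron 22 of 28 (chr8:105890418-105890521, plus strand), Polr2e intron 4 of 6 (chr10:80036843-80036914, minus strand), Smpd4 intron 6 of 19 (chr16:17626539-17626638, plus strand) and Drap1 intron 2 of 6 (chr19:5424276-5424360, minus strand), all between coding exons.
Rfx5 intron 7: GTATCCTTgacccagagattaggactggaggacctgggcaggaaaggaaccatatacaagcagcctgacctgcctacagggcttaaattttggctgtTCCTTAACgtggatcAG
Edc4 intron 22: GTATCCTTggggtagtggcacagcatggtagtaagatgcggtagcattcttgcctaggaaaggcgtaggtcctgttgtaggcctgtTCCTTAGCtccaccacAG
Polr2e intron 4: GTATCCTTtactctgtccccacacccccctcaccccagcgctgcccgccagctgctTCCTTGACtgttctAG
Smpd4 intron 6: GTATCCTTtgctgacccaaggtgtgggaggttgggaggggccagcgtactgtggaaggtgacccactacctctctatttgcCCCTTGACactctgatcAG
Drap1 intron 2: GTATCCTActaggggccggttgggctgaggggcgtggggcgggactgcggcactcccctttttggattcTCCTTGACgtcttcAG

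Introns of this kind were rare in the short class. With both spellings of the U12-type start, ATATCCTT and GTATCCTT, and at most 1 mismatch, 10 of 2198 sequenced short introns matched (0.455%), against 25 of 2714 sequenced introns of 500 to 5000 bases (0.921%). The branch motif with at most 2 mismatches was present in the last 40 bases of 6 of the 10 short and 22 of the 25 longer ones. Of the 2198, 2177 ran from GT to AG and 14 from GC to AG. Introns with a readable sequence are a selected set, since each is an exon in some other transcript, and a comparison of GC content is void because only 1457 of the 7276 short introns with enough reads in progenitors had one.

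A second group of sequences shows ordinary GT to AG introns whose retention differed between cell types below. Capitals mark the first and last 2 bases. They are Psmb10 intron 5 of 7 (chr8:105936755-105936865, minus strand), Hnrnpl intron 8 of 13 (chr7:28818533-28818643, plus strand), Ctsa intron 3 of 15 (chr2:164834209-164834319, plus strand) and Mtx1 intron 5 of 7 (chr3:89210184-89210265, minus strand).
Psmb10 intron 5: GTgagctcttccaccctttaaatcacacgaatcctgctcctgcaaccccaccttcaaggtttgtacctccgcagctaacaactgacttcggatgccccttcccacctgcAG
Hnrnpl intron 8: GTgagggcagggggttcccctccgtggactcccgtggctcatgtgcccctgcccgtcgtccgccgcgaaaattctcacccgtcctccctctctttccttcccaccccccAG
Ctsa intron 3: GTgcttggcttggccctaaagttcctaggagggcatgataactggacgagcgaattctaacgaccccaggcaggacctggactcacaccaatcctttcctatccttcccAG
Mtx1 intron 5: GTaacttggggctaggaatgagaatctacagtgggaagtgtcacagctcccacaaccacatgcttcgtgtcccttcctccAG

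The 7276 short introns with enough reads in progenitors lay in 2931 genes and had a median length of 90 bases. Almost all (7126, 97.9%) separate coding exons, 61 lie in a 5′ UTR, 19 in a 3′ UTR and 70 in noncoding transcripts. They were less often the first intron of their transcript (2.90%) than introns of 500 to 5000 bases (6.92%). Lengths divisible by 3 made up 31.5% of them. A single short intron was present in 1459 genes, and 78 genes held 10 or more. Cpsf1, a subunit of the mRNA cleavage and polyadenylation factor, had the most with 31, counted over its transcripts of up to 36 introns. It was followed by the lipid transporter Abca2 with 26, Sbf1 with 25, the actin crosslinker Flna with 24 and the fatty acid synthase Fasn with 23. Retention varied within these genes, from 0.228% to 20.3% around a median of 3.51% in Cpsf1, as mean MSI over the 9 WT progenitor libraries.

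Short introns were retained more than introns of 500 to 5000 bases when classes were compared across genes. Averaged over libraries, the median MSI was 2.19% in short and 1.25% in longer introns of progenitors, and 1.58% and 0.851% in MEF. The difference was 0.937 ± 0.0784 MSI points over the 6 mice (SD, n = 6) and 0.731 points over the 6 MEF embryos, and it was positive in all 6 of each. An exact two-sided sign-flip test gave p = 0.03125 in both sets, the smallest that 6 values can give. The size depended on the measure, at 0.229 points in progenitors and 0.159 in MEF when reads were pooled over each class, 0.148 and 0.268 against introns from 200 bases up to the start of the longer class, and 1.61 and 1.08 against those longer than 5000 and up to 50000 bases. In WT progenitors, 863 short introns (11.9%) had a mean MSI of 10% or more, against 6.35% of the longer ones, and 2108 (29.0%) lay under 1%, against 41.9%. The excess was in the middle of the range, since an MSI of 50% or more occurred in 21 short introns (0.289%) and in 0.433% of the longer ones.

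Inside the same genes, the size and the sign of the difference depended on how genes were summarised. Among 2727 genes with introns of both classes in progenitors, the median short intron was the lower in 1472 (54.0%) and the higher in 1253, and in MEF the short ones were lower in 1598 of 3117 genes (51.3%). Per mouse, the median of these within-gene differences of medians was -0.118 MSI points in progenitors, negative in all 6 mice (exact sign-flip p = 0.03125), and -0.0232 points in MEF (exact p = 0.25). Leaving out introns under other annotation brought it to -0.0127 points in progenitors (exact p = 0.1875) and -0.00109 in MEF (exact p = 1.0). With gene means in place of medians it was larger, at -0.676 points in progenitors and -0.423 in MEF. The gene means were the planned setting, and the gene medians were added to it. The median over genes of the short and of the longer introns, taken separately, was 2.05% and 2.07% in progenitors and 1.5% and 1.41% in MEF, so the short ones were the higher there in MEF. Without introns under other annotation these medians, averaged over mice or embryos, were 1.42% and 1.29% in progenitors and 1.01% and 0.899% in MEF, again higher for the short ones. Introns of 500 to 5000 bases had a median MSI of 1.51% in genes that also hold a short intron and 1.36% in other genes.

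**Figure D1:**
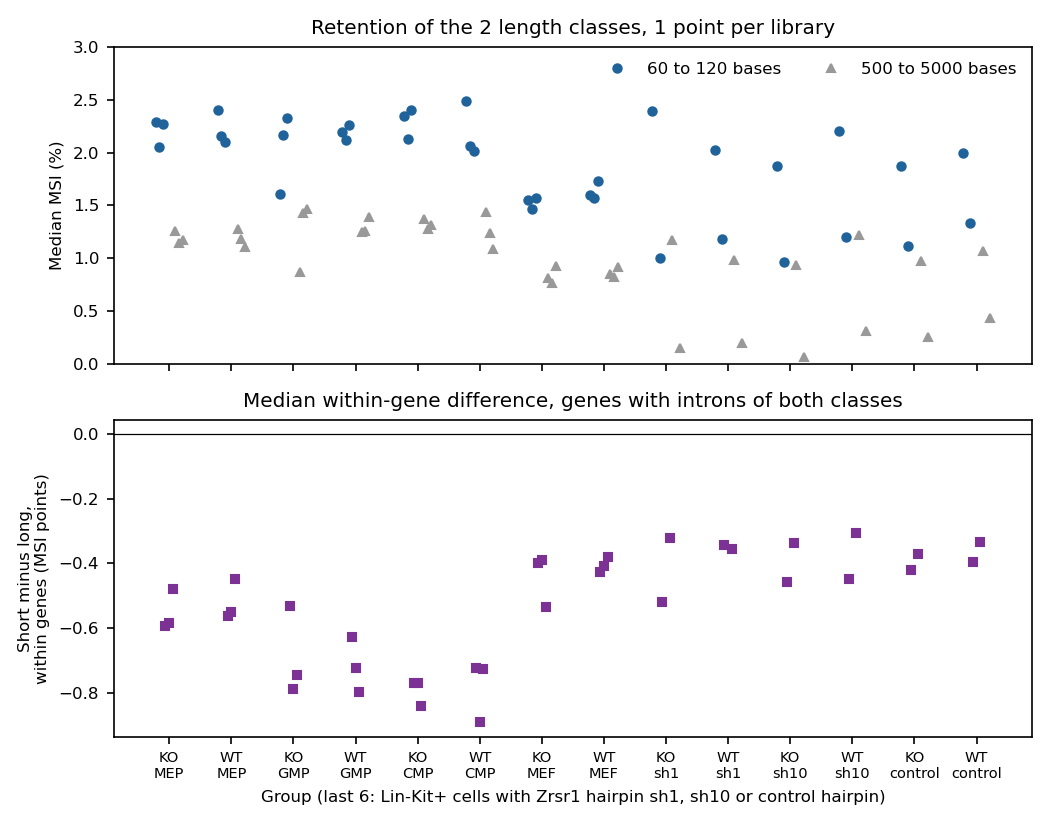
Median MSI (percent) of introns of 60 to 120 bases (circles) and of 500 to 5000 bases (triangles) in each library, by group, above the median within-gene difference of mean MSI between the classes (squares, points). The short class lies above the longer one in every library, and every within-gene difference lies below 0. The last 6 groups are Lin-Kit+ cells, where experiment 2 gives the lower point of each pair of circles.

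Retention was not even across the 60 to 120 bases. With introns under another annotated exon left out, the median MSI in progenitors averaged 8.40% at 60 to 70 bases, 2.84% at 71 to 80, 1.66% at 81 to 90, 1.21% at 91 to 100 and 1.39% at 101 to 120 bases. MEF followed the same order, from 4.13% at 60 to 70 bases to 0.904% at 91 to 100. The libraries of the shortest bin (6.70% to 10.6% in progenitors) did not overlap those of any longer bin. That bin is small, with 62 introns of 55 genes. Beyond 120 bases the medians were 1.55% at 121 to 150 and 1.70% at 151 to 200 bases, then declined to 0.766% at 2001 to 5000 and 0.188% at 10001 to 50000 bases.

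**Figure D2:**
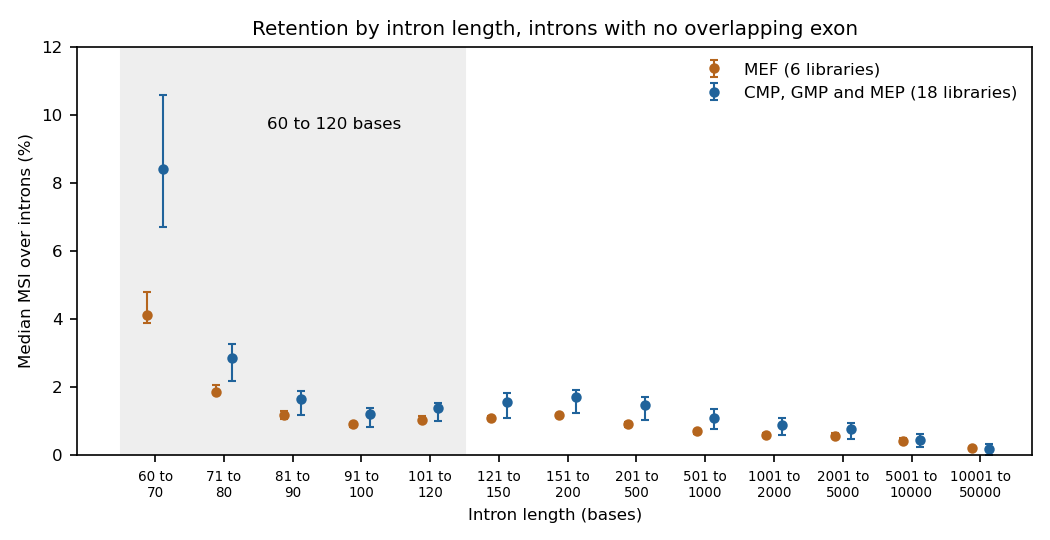
Median MSI (percent) by intron length in bases for introns with no overlapping annotated exon, as the mean over libraries (points) with the lowest and highest library (bars), for 6 MEF and 18 progenitor libraries. Shading marks 60 to 120 bases, where the medians descend steeply from 8.40% at 60 to 70 bases to 1.21% at 91 to 100 bases in progenitors.

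Annotation and position moved with retention in both classes. Another transcript has an exon over 1837 (25.2%) of the short introns, which had a median MSI of 5.4%, against 1.80% for the rest, and 204 of the 270 short introns at 20% or more lay under such an exon. In such introns, reads of the other transcript cannot be told from reads of an unspliced intron. Of the introns without overlap, the last introns of a transcript had a median of 2.46%, the first 1.67% and those between 1.55%, compared with 1.88%, 0.810% and 0.794% in the longer class. The intron body was covered over a median fraction of 0.909 in short and 0.569 in longer introns, a measure that depends on length itself.

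Both ends of a short intron gave similar totals to those of longer ones. Reads at the 5′ end were 0.757 times those at the 3′ end in short introns and 0.734 times in the longer class, as medians over progenitor libraries. The 2 ends of 1 intron matched better when the intron was short. Among introns with 10 to 30 end reads and no overlapping exon, the squared difference between the ends divided by their sum, which is 1 under binomial sampling, averaged 3.68 at 60 to 70 bases, 6.75 at 101 to 120 and 8.0 at 500 to 5000 bases. Whether a read that spans a whole short intron was counted at both ends is not given in the sources used here.

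Levels differed between lists of host genes. The 43 short introns of cytosolic ribosomal protein genes had a median MSI of 0.522% and none at 10%, against 2.35% over all short introns, and the 155 of collagen genes in MEF had 0.0982%, against 1.69%. SR splicing factor genes (7 introns, 0.875%), hnRNP genes (33, 1.1%), replication genes (34, 1.36%) and proteasome genes (48, 1.75%) also lay below the median of the class. The proteasome list was taken by symbol, and with the 3 introns of Psmc3ip, a recombination factor whose symbol matches and which was left out after the values were seen, it had 2.23%. DEAD/DEAH box helicases (105, 2.34%), aminoacyl-tRNA synthetases (76, 2.58%), tubulin and actin genes (9, 2.74%) and heme synthesis genes (18, 2.94%) were near it. The splicing factor kinases Clk1 to Clk4, whose transcripts are known for introns held back in the nucleus, had 6 short introns with a median of 5.06%. The 3 of minor spliceosome genes had 2.87% and the 2 of neutrophil granule genes 2.34%, while globin genes had none with enough reads.

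At the top stood introns that few transcripts lose. Intron 7 of Pnp, the purine nucleoside phosphorylase, lies in the 3′ UTR, is 72 bases long and had an MSI of 94.8% to 100% in all 36 libraries. Both introns of the noncoding gene Gm26809 also stayed above 70% in WT progenitors and WT MEF. Among coding genes with no overlapping exon, Atp13a1 intron 10 (70 bases) had 34.8% to 44.7% in WT progenitors and Abca7 intron 38 (72 bases) 28.8% to 41.7%. Lower values in MEF were called for both. Atp13a1 had 21.2%, 25.8% and 28.4% in WT MEF, a log2 change of the ratio of end reads to spliced reads of -0.91 ± 0.19 (SE) against WT progenitors (adjusted p = 0.00063, edgeR). Abca7, a lipid transporter, had 9.82%, 10.8% and 8.18% in WT MEF, with a log2 change of -2.27 ± 0.20 (adjusted p = 1.4e-06, edgeR).

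Zrsr2 deficiency moved the short class as a whole by less than the spread between mice. The difference between the class medians of log2(end reads / spliced reads) was compared between KO and WT. This lessens shifts shared by introns of every length, but they need not cancel fully. KO GMP library 1, low in both classes, had a difference of 0.819, against 0.577 and 0.656 in the other KO GMP libraries. KO minus WT was -0.010 in MEP, -0.024 in GMP, -0.023 in CMP and -0.055 in MEF. Exact permutation tests of 3 against 3 libraries gave two-sided p = 0.9, 0.8, 0.7 and 0.5, where 0.1 is the smallest possible. Without KO GMP library 1, the GMP value was -0.0909.

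Intron by intron, no short intron was called in any comparison of KO with WT by edgeR's test of end reads against spliced reads, at an adjusted p under 0.05 over all introns tested. Of all introns, of every length, 0.00604% were called in MEP, 0.0101% in GMP, 0.0201% in CMP (0.0181% higher and 0.00201% lower) and 0% in MEF, so a count of 0 among 5810 short introns in progenitors or 5546 in MEF is near the background. At an unadjusted p under 0.05 there were 178 short introns in MEP (3.06%, against 3.17% of all introns), 200 in GMP (3.44%, against 2.64%), 389 in CMP (6.7%, against 6.2%) and 331 in MEF (5.97%, against 4.89%). In MEP and GMP the share of all introns was below what a test gives when nothing differs. The absence of calls in MEP and GMP therefore says little. DESeq2 called 2 short introns in CMP and limma 1, and none in the other 3 types. Without WT CMP 1, edgeR called 3 in CMP, and without WT GMP 3 it called 1. All 3 KO libraries lay above all 3 WT libraries in 3.49% of short introns in MEP (3.76% of all introns), 2.72% in GMP (2.95%), 4.93% in CMP (4.3%) and 3.0% in MEF (3.34%). They lay below in 4.19% (3.58%), 4.7% (3.64%), 3.35% (3.22%) and 5.58% (4.38%).

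Vps16 intron 9 had the smallest p among short introns in GMP and the same direction in all 3 progenitor types. This intron of 94 bases (chr2:130439526-130439619, plus strand) lies between coding exons of a gene whose protein belongs to the complexes that tether vesicles to lysosomes. Its MSI was 9.25%, 9.51% and 6.68% in KO MEP, against 2.85%, 4.06% and 3.06% in WT MEP. It was 8.09%, 10.2% and 8.74% in KO GMP, against 3.16%, 3.19% and 3.02% in WT GMP. In CMP it was 9.57%, 11.2% and 4.89% in KO and 4.79%, 1.83% and 3.56% in WT. KO and WT libraries did not overlap in any of the 3 types. The log2 changes were 1.42 ± 0.38, 1.60 ± 0.38 and 1.43 ± 0.38 (SE) in MEP, GMP and CMP, with adjusted p of 0.479, 0.261 and 0.223 in edgeR, so none passed the threshold. MEF differed, with 6.00%, 5.98% and 10.5% in KO and 8.14%, 5.35% and 6.18% in WT MEF, overlapping and with a log2 change of 0.18 (adjusted p = 0.999, edgeR). The difference between progenitors and MEF was not tested.

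Tnpo2 intron 3 showed the same kind of pattern beside a called longer neighbour. Tnpo2 is a nuclear import receptor, and the intron has 76 bases (chr8:85040538-85040613, plus strand). Its MSI was 3.09%, 5.36% and 2.85% in KO MEP, against 0.843%, 0.354% and 0.816% in WT MEP. In GMP it was 2.22%, 6.78% and 6.09% in KO and 1.06%, 0.561% and 0.855% in WT, and in CMP 2.64%, 2.12% and 3.73% in KO and 1.44%, 1.21% and 0% in WT. The groups did not overlap in any type. Log2 changes of 2.49, 2.43 and 2.50 had adjusted p of 0.600, 0.729 and 0.668 (edgeR). Intron 2 of Tnpo2, next to it and 1972 bases long, was called in GMP (log2 change 2.80, adjusted p = 0.0151, edgeR) and CMP (3.06, adjusted p = 0.0226).

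Among short introns with a readable sequence, those with a U12-type start did not pass the test either. The Vps16 and Tnpo2 introns described above had no readable sequence, so whether they are U12-type was not tested. The branch motif was present in 6 of the 10 short introns with a U12-type start, and the counts and medians below were not split by it. Of the 10, 8 were tested in progenitors, and the ratio was higher in KO for 7 in MEP, 5 in GMP and 6 in CMP, with median log2 changes of 0.396, 0.300 and 0.260, where all introns had medians of 0.0181, -0.0916 and 0.0765 and 51.5%, 42.0% and 55.6% of them were higher. In MEF 5 of 7 were higher, with a median of 0.12 (-0.033 and 46.7% over all introns). Under the control hairpin, none of 5 was higher in KO than in WT Lin-Kit+ cells, with a median of -0.248 (-0.0723 and 46.5% over all introns). KO with Zrsr1 hairpins was higher in 3 of 5 against WT with hairpins (median 0.288, with -0.0711 and 46.0% higher over all introns), in 5 of 5 against KO control (0.794, with 0.000774 and 50%) and in 4 of 5 against WT control (0.542, with -0.0868 and 45.7%). WT with hairpins was higher in 3 of 5 against WT control (0.208, with -0.00664 and 49.6%), and these comparisons share libraries. Smpd4, which encodes a sphingomyelinase, had 2.16%, 2.70% and 2.97% in KO MEP and 0.224%, 1.35% and 1.44% in WT MEP, without overlap. Its intron 6 also did not overlap in CMP, at 6.17%, 2.55% and 3.35% in KO and 0.366%, 2.33% and 0% in WT, but did in GMP, and adjusted p was 0.999, 0.998 and 0.497 in MEP, GMP and CMP (edgeR). Edc4, a scaffold of mRNA decapping, had 17.7%, 16.3% and 14% in KO MEP and 15%, 9.71% and 9.81% in WT MEP, overlapping, with a log2 change of 0.57. Polr2e, a subunit shared by the RNA polymerases, lay at 3.27% to 5.18% in KO and 2.99% to 6.12% in WT progenitors. Rfx5, a transcription factor of MHC class II genes, had 25.7%, 22.2% and 19.9% at intron 7 in KO GMP and 19.8%, 13% and 10% in WT GMP, which just did not overlap (log2 change 0.85 ± 0.43, adjusted p = 0.998, edgeR), while KO and WT overlapped in MEP, CMP and MEF. Drap1 intron 2, in a transcriptional corepressor, had 1.51%, 1.43% and 1.40% in KO CMP and 0.724%, 1.15% and 0.557% in WT CMP, with a log2 change of 0.91 ± 0.43 (adjusted p = 0.655, edgeR).

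**Figure D3:**
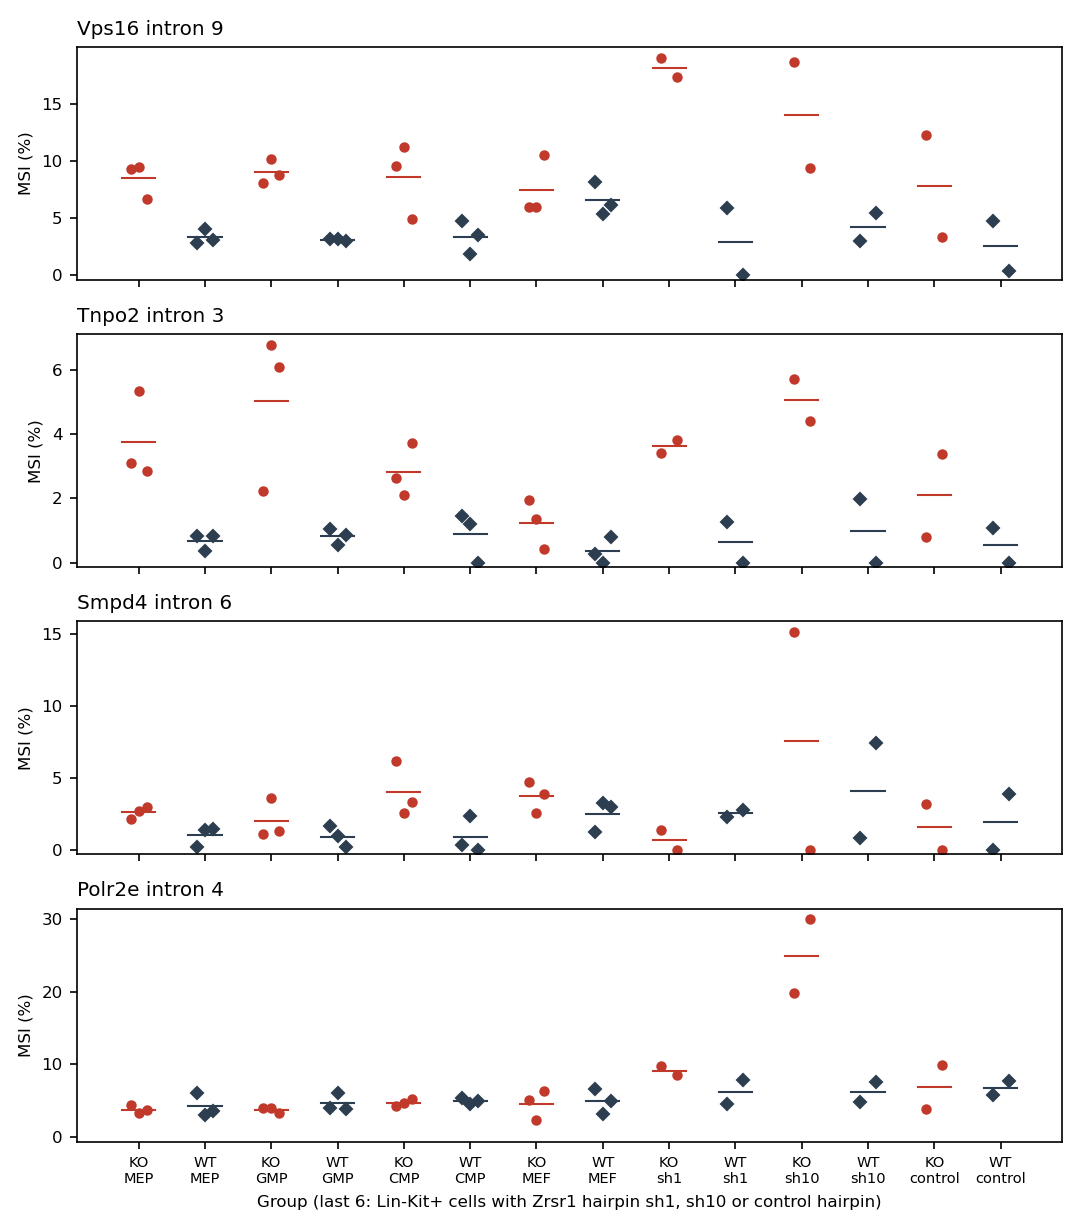
MSI (percent) of 4 short introns in every library, by group: KO (circles) and WT (diamonds), with the group mean as a line; the last 6 groups are Lin-Kit+ cells with Zrsr1 hairpin sh1, sh10 or the control hairpin. For Vps16 and Tnpo2 the KO points lie above the WT points in MEP, GMP and CMP, and for Polr2e only the KO groups with a Zrsr1 hairpin lie above their WT counterparts.

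A few further introns were close to the threshold in CMP. Lsg1, a factor in export and maturation of the large ribosomal subunit, had an MSI at intron 9 of 4.06%, 4.73% and 6.41% in KO CMP and 1.14%, 0.529% and 0.483% in WT CMP (log2 change 2.84 ± 0.52, adjusted p = 0.108, edgeR). Cpne1 intron 6 had 4.46%, 2.73% and 4.83% in KO CMP and 1.20%, 1.03% and 0.416% in WT CMP (2.27 ± 0.49, adjusted p = 0.0866). Pfas intron 10, in a gene of purine synthesis, had 11, 12 and 7 end reads in KO CMP and 0 in each WT CMP library (adjusted p = 0.065, edgeR), and no fold is given against 0. The groups did not overlap in any of these. DESeq2 called Lsg1 (adjusted p = 0.0439) and Pfas (adjusted p = 0.049). In the other cell types, introns lower in KO were also among the 3 with the smallest p. In MEP these were in Pcgf5 and Calr (adjusted p = 0.295 and 0.519, edgeR), and in GMP in Ric8a (0.979). In MEF all 3 were lower in KO, in Pip5k1c, Abcf1 and Flna (adjusted p = 0.908 each, edgeR).

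With Zrsr1 hairpins the short class again gave no firm shift. Relative to the longer class, KO cells with the hairpins minus WT cells with the control hairpin differed by 0.098 in experiment 1 and 0.159 in experiment 2 on the log2 scale. KO with the hairpins minus KO with the control was 0.088 and -0.012, and WT with the hairpins minus WT with the control 0.034 and 0.246. With 2 control libraries no exact permutation test can reach 0.05, and these values are a description. The longer class had a median MSI of 0.932% to 1.22% in experiment 1 and only 0.0656% to 0.435% in experiment 2. So near 0, its log2 value depends on the 0.5 added to each count. The values of experiment 2 are therefore not a measure of the short class alone. No short intron was called in the 5 Lin-Kit+ comparisons by edgeR (0% of all introns). This fit had no term for the experiment, although libraries of 1 experiment deviated together (correlations of 0.165 to 0.218). Fewer of all introns reached an unadjusted p under 0.05 than a test gives when nothing differs. The absence of calls in this fit therefore says little. With the experiment as a block, edgeR called 1 in KO with hairpins against WT with hairpins, Ehmt2 intron 13 (0.0692% of all introns called), and 1 in KO with hairpins against WT control, Ly6e intron 4 (0.0241% of all introns). Unadjusted p under 0.05 without the block was reached by 114 of 4546 short introns in KO with hairpins against WT with hairpins (2.51%, against 2.45% of all introns), 84 in KO with hairpins against WT control (1.85%, against 1.78%), 126 in KO with hairpins against KO control (2.77%, against 2.29%), 57 in WT with hairpins against WT control (1.25%, against 0.954%), and 54 in KO control against WT control (1.19%, against 1.0%). Some marker genes moved with the hairpins. The hairpin libraries lay below the control libraries without overlap for 1 of 4 measured CMP markers in KO cells (Cd34) and 2 of 4 in WT cells (Cd34 and Myb), and for 2 of 6 GMP markers in either genotype (Elane and Ctsg). The other CMP and GMP markers overlapped, among them Kit, at 195 to 374 CPM with hairpins and 172 to 399 in control in KO cells, and Fcgr3, which leaned the other way at 157 to 290 and 139 to 203. Of the 6 MEP markers, none separated in KO cells and 1, Car1 (lower), in WT cells. Cd34, a marker of early progenitors, was at 53.4 to 86.6 CPM in KO cells with a Zrsr1 hairpin and 149 to 249 in KO control, and at 46.7 to 87.1 in WT cells with one and 154 to 243 in WT control. The GMP list summed to 1540 to 4280 CPM in KO cells with a hairpin, against 5370 to 6680 in KO control, and to 2690 to 4830 in WT cells with one, against 5840 to 6810 in WT control. The part of these shifts in the hairpin results was not tested.

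Several introns were high in KO cells that also carried a Zrsr1 hairpin, without passing the threshold. Polr2e intron 4 had 9.77% and 8.52% with sh1 and 19.8% and 30% with sh10 in KO cells, 4.6% and 7.85% with sh1 and 4.78% and 7.54% with sh10 in WT cells, and 3.89% and 9.89% in KO and 5.81% and 7.69% in WT cells with the control hairpin. The 4 KO libraries with a hairpin lay above the 4 WT libraries with one, but the KO control overlapped them. KO with hairpins against WT with hairpins gave a log2 change of 1.49 ± 0.48 (unadjusted p = 0.00959, adjusted p = 0.998, edgeR). Vps16 intron 9 had 19.0% and 17.3% with sh1 and 18.6% and 9.42% with sh10 in KO cells, against 5.88% and 0% and 3.04% and 5.45% in WT cells. In KO and WT cells with the control hairpin it had 12.3% and 3.34%, and 4.71% and 0.391%. Again KO libraries with a hairpin lay above all others except 1 KO control library (log2 change 3.12 ± 1.11 against WT with hairpins, adjusted p = 0.998, edgeR). Tyk2 intron 24, in a gene for a cytokine receptor kinase, had 7.22%, 6.59%, 6.90% and 10.4% in KO cells with hairpins and 1.80% and 0.452% in KO cells with the control (log2 change 3.05 ± 0.69, unadjusted p = 0.00203, adjusted p = 0.998, edgeR). WT cells had 5.22%, 4.48%, 4.66% and 2.91% with hairpins and 2.87% and 2.76% with the control, and KO with hairpins against WT with hairpins gave 0.90 ± 0.56 (unadjusted p = 0.138, edgeR). Polr2e was named for its U12-type start and not for its p. Introns named for a small p also included lower ones in KO with hairpins. They were in Leng8 against WT with hairpins, Prpf8 against WT control and Cdk11b against KO control (adjusted p = 0.998, 0.999 and 0.998, edgeR). Grk2 was higher against WT control (0.999).

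Ehmt2 intron 13 went the other way and was called by some tools. Ehmt2 is a histone methyltransferase, and this intron of 82 bases is overlapped by an exon of another transcript. Its MSI was 0% in all 4 KO libraries with a hairpin and 2.29%, 1.90%, 3.88% and 1.86% in the WT libraries with one. KO and WT cells with the control hairpin had 1.05% and 0%, and 0.365% and 0.514%. The adjusted p was 0.333 in edgeR, 0.0403 in edgeR with the experiment as a block and 0.00188 in DESeq2, and no fold is given against 0. DESeq2 also called Vat1 intron 3 in this comparison (adjusted p = 0.038). Ly6e intron 4, of 104 bases in the gene of a membrane protein and overlapped by an exon of another transcript, had 1.59% and 0.494% with sh1 and 1.5% and 0.649% with sh10 in KO libraries (experiment 1, then 2) and 2.70% and 1.15% in WT control. Within each experiment the KO libraries with a hairpin lay below the WT control library (log2 change -0.926 ± 0.673, adjusted p = 0.0446, edgeR with the experiment as a block). The SE, which came from limma, was large against the change. WT libraries with a hairpin lay at 1.45% and 1.58% in experiment 1 and 0.705% and 0.722% in experiment 2. KO libraries with the control hairpin had 2.22% in experiment 1 and 1.14% in experiment 2.

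The short class differed between progenitor types of the same mice. On the log2 scale and relative to introns of 500 to 5000 bases, it was higher in MEP than in GMP by 0.157 ± 0.0890 (SD, n = 6 mice) and than in CMP by 0.0856 ± 0.0435. Each difference was positive in 6 of 6 mice, with an exact two-sided sign-flip p of 0.03125, adjusted over 3 comparisons to 0.0469. MEP minus GMP was 0.00877, 0.219 and 0.262 in the KO mice and 0.128, 0.130 and 0.191 in the WT mice. The low value, in KO mouse 1, is that of the GMP library that stood apart. MEP minus CMP was 0.103, 0.0971 and 0.0762 in the KO mice and 0.117, 0.118 and 0.00249 in the WT mice. GMP minus CMP was -0.0709 on average and negative in 5 of 6 mice, and did not pass (exact p = 0.156). The MEP minus CMP difference was negative when a single intron end was counted, at -0.0152 and -0.0272 for the ends of lower and higher coordinate, and was 0.0488 without introns under other annotation.

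**Figure D4:**
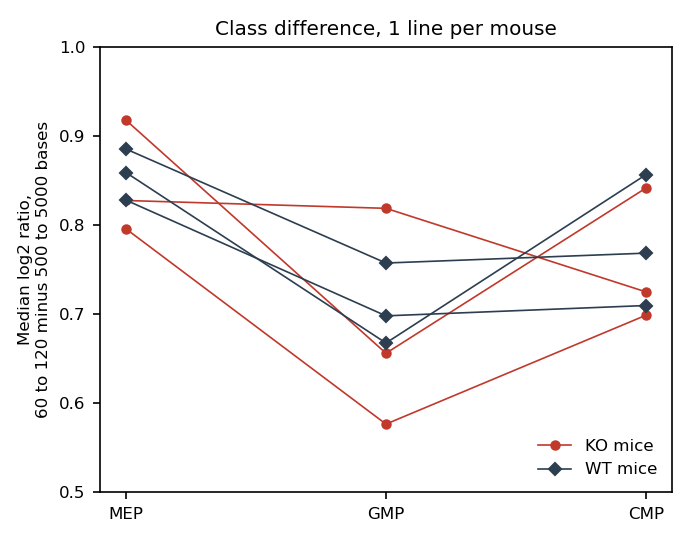
Difference between the class medians of log2(end reads / spliced reads), introns of 60 to 120 bases minus introns of 500 to 5000 bases, in MEP, GMP and CMP of each mouse (lines join libraries of 1 mouse, KO and WT in separate colours). MEP lies above GMP and CMP in all 6 mice, and the mice differ in how far; the vertical axis does not start at 0.

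Individual introns separated MEP from the other progenitors. The fit of single introns had no term for the mouse, unlike the class test above. Of 5810 short introns tested in WT mice, 30 were called between MEP and CMP (0.516%, against 0.665% of all introns), 15 higher and 15 lower in MEP. Of all introns, 0.195% were higher and 0.469% lower. Between MEP and GMP there were 15 (0.258%, against 0.326%), 8 higher (0.129% of all introns) and 7 lower (0.197%), and between GMP and CMP 3, all higher in GMP (0.0725% of all introns called, 0.0524% higher and 0.0201% lower). When ratios were centred on all introns, the calls were 22 higher and 13 lower in MEP against CMP and 14 and 6 in MEP against GMP. In the KO libraries, which enter the fit's estimate of spread, the difference had the same sign for 26 of the 30, 15 of the 15 and 2 of the 3 short introns, against 94.5%, 98.8% and 88.9% of called introns of every length. The counts leaned on single libraries: MEP against CMP had 14, 18 and 9 calls without WT CMP 2, WT MEP 2 and WT MEP 3, and MEP against GMP had 9 without either WT GMP 1 or WT MEP 2. GMP against CMP had 8 without WT CMP 1, 5 without KO GMP 1, and 0 or 1 without KO GMP 3 or any other single WT GMP or WT CMP library.

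Vat1 intron 5 was higher in MEP than in both other types. Vat1 encodes a vesicle membrane protein, and its last intron has 100 bases (chr11:101460277-101460376, minus strand) and no overlapping exon. The MSI was 44.3%, 36.5% and 53.5% in WT MEP, against 4.67%, 5.20% and 4.45% in WT GMP and 10.1%, 12% and 11.3% in WT CMP. KO mice had 41.2%, 34.5% and 39.6% in MEP, 4.77%, 4.47% and 4.97% in GMP and 14%, 8.25% and 6.15% in CMP. MEP did not overlap the other types in either genotype. The log2 change was 4.0 ± 0.31 against GMP (adjusted p = 2.35e-10, edgeR) and 2.68 ± 0.31 against CMP (adjusted p = 9.24e-06). Spliced reads over this intron were also fewest in MEP, at 71, 60 and 33 in WT MEP, 2022, 2125 and 1827 in WT GMP and 673, 347 and 467 in WT CMP.

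Psmb10 intron 5, whose sequence is given above, was also retained more in MEP. Psmb10 is a catalytic subunit of the immunoproteasome. Its intron had 13.5%, 14.8% and 20.7% in WT MEP, against 3.33%, 2.78% and 3.29% in WT GMP and 3.29%, 3.80% and 6.22% in WT CMP. The log2 changes were 2.57 ± 0.32 (adjusted p = 7.25e-08, edgeR) and 2.10 ± 0.32 (adjusted p = 1.72e-05). KO MEP had 11.9%, 21.2% and 20.9%, again above every KO GMP and KO CMP library. An exon of another transcript overlaps the intron, and its reads cannot be told apart from those of the unspliced intron.

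Other introns were higher in MEP with less stable calls. Matk intron 9, in a kinase of megakaryocytes, had 12.2%, 22.1% and 29.5% in WT MEP and 4.33%, 1.16% and 3.51% in WT CMP (log2 change 3.22 ± 0.81, adjusted p = 0.0192, edgeR), and 7 of 30 alternatives lost the call, among them leaving out WT CMP 2 (adjusted p = 0.140), WT MEP 2 (0.0913) or WT MEP 3 (0.106). Hnrnpl intron 8, in the gene of an RNA-binding splicing regulator, had 17.5%, 16.9% and 20.6% in WT MEP and 10.9%, 9.17% and 11% in WT CMP (0.96 ± 0.23, adjusted p = 0.023, and 0.0512 to 0.166 without any 1 of the WT CMP libraries or WT MEP 3). In all, 7 of 31 alternatives lost the Hnrnpl call, among them limma, the higher-coordinate end only and separate dispersion trends. P2rx4 intron 3, in an ATP-gated channel, had 17.0%, 16.1% and 12.6% in WT MEP and 0.629%, 3.43% and 2.77% in WT GMP (3.14 ± 0.52, adjusted p = 0.005, but 0.0674 without WT GMP 1 and 0.166 and 0.267 when only the lower or the higher end was counted). In each of these the groups did not overlap, and the Hnrnpl intron lies under an exon of another transcript. Among ribosomal protein genes, 3 of 42 short introns were called higher in MEP than in CMP and none lower, where 0.195% of all introns were called higher and 0.469% lower. One of them is Rpl3 intron 9, at 0.825%, 0.857% and 0.866% in WT MEP and 0.279%, 0.249% and 0.386% in WT CMP (1.51 ± 0.48, adjusted p = 7.8e-06, edgeR), a call limma did not make. Between MEP and GMP, 1 of the 42 was called higher in MEP and none lower. Of all introns, 0.129% were called higher and 0.197% lower there.

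In the other direction, Abca3 intron 31 was retained less in MEP. Abca3 is a lipid transporter, and the intron has 97 bases (chr17:24408728-24408824, plus strand). It had 4.45%, 2.59% and 3.17% in WT MEP, against 27.9%, 19.6% and 10.8% in WT GMP and 19.1%, 19.5% and 16.6% in WT CMP. The log2 changes were -2.71 ± 0.36 (adjusted p = 8.87e-05, edgeR) and -2.70 ± 0.36 (adjusted p = 8.44e-05), lost when only the end of lower coordinate was counted. Ino80e intron 1, a 5′ UTR intron of a chromatin remodelling subunit, had 2.11%, 1.75% and 1.14% in WT MEP and 9.55%, 9.53% and 8.82% in WT GMP (-2.63 ± 0.35, adjusted p = 2.13e-07). MEP did not overlap GMP in either intron, and an exon of another transcript overlaps the Ino80e intron.

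**Figure D5:**
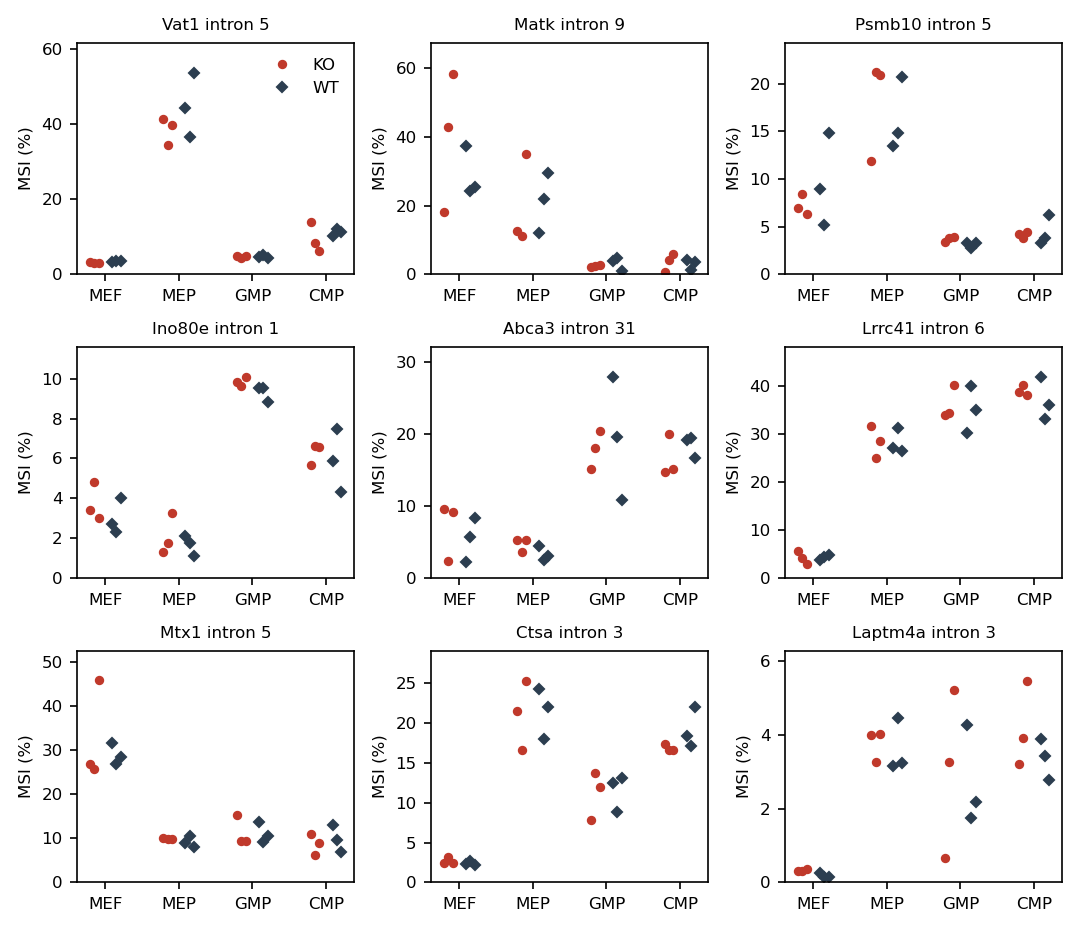
MSI (percent) of 9 short introns in every MEF, MEP, GMP and CMP library, with KO left of WT in each cell type. Vat1, Matk and Psmb10 are high in MEP against GMP and CMP, Ino80e and Abca3 are low in MEP against GMP, Lrrc41, Ctsa and Laptm4a are low in MEF and Mtx1 is high in MEF, in KO as in WT libraries.

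MEF retained many short introns less than progenitors, as they did introns of all lengths. Of 5360 short introns tested in WT libraries, 1091 were called (20.4%, against 19.9% of all introns), 136 higher (2.1% of all introns) and 955 lower (17.8%) in MEF. The median log2 change was -0.37 for short introns and -0.40 for all, a shift shared by introns of every length. With ratios centred on all introns the calls were 340 higher and 420 lower, and without WT MEF 5 or WT MEF 6 they fell to 696 and 658 in all. MEF and progenitors came from different animals and preparations, and cell type cannot be told apart from these. In hnRNP genes 2 short introns were called higher and 8 lower, in proteasome genes without Psmc3ip 2 and 11 of 41, in DEAD/DEAH box genes 1 and 20 of 85, in aminoacyl-tRNA synthetase genes 1 and 12 of 59 and in ribosomal protein genes 4 and 22 of 42.

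Single introns differed far beyond that shift. Lrrc41 intron 6 (chr4:116095042-116095132, plus strand), in the gene of a ubiquitin ligase adaptor, had 3.91%, 4.49% and 4.81% in WT MEF, against 26.5% to 41.8% in the 9 WT progenitor libraries. Its log2 change was -3.42 ± 0.20 (adjusted p = 5.8e-14, edgeR). An antisense exon covers it, and intron 9 of the same gene, also under an antisense exon, behaved alike (-2.99). Ctsa, the lysosomal cathepsin A, had 2.34%, 2.65% and 2.21% at intron 3 in WT MEF, against 8.88% to 24.3% in WT progenitors (-3.03 ± 0.21, adjusted p = 4.97e-12), and intron 5 also fell (-1.97 ± 0.22). Exons of other transcripts overlap both Ctsa introns. Laptm4a, a lysosomal membrane protein, had 0.260%, 0.146% and 0.149% at intron 3 in WT MEF, against 1.74% to 4.44% in WT progenitors (-4.14 ± 0.38, adjusted p = 4.01e-11).

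Higher retention in MEF was rarer. Mtx1, a mitochondrial import protein, had 31.7%, 26.8% and 28.4% at intron 5 in WT MEF, against 6.92% to 13.7% in WT progenitors (1.89 ± 0.24, adjusted p = 7.99e-08, edgeR). Intron 7 of Mtx1, which no other exon overlaps, had 26.2%, 23.2% and 21.7%, against 5.35% to 10% (1.89 ± 0.24, adjusted p = 1.96e-06). KO MEF had 26.8%, 25.8% and 45.9% at intron 5, and MEF and progenitors did not overlap at either intron. Hnrnpl intron 8, higher in MEP above, was higher in MEF too, at 25.3%, 21.6% and 22.2% (1.0 ± 0.19, adjusted p = 4.98e-05).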

How the data were processed

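Libraries of polyadenylated RNA were described by 36 deposited tables, 1 per library, that list for each intron the counts of reads across its lower-coordinate end, its higher-coordinate end and its splice junction, the fraction of the intron covered, and the retention value MSI in percent. The authors' deposited count, fraction and percent values were used as they stand. The build is mm10, per the submitters' processing notes; the sources used here do not name the aligner, counter or strand setting. MSI recomputed from the deposited counts matched the deposited percent within 0.001 in every row. Introns were matched by coordinates to GENCODE M21, which gave the gene, intron number, location and, from transcripts whose exon spans an intron, its sequence.

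The members and gene lists were chosen with earlier results of these data known. Introns entered a set with 50 or more reads in every library, and single-intron tests also required a mean of 5 or more end reads. edgeR 4.0.16 (R 4.3.3) tested the ratio of end reads to spliced reads in its quasi-likelihood model (diffSpliceDGE), with Benjamini-Hochberg adjustment over all introns tested and a threshold of 0.05. Log2 changes with SE came from limma 3.58.1 on log2((end reads + 0.5)/(spliced reads + 0.5)). The 13 comparisons were KO against WT per cell type, cell types in WT, and 5 in Lin-Kit+ cells. The main fits had no term for the mouse or the experiment. Class medians were compared over mice by exact sign flips and between genotypes by exact permutation. The edgeR test was also run on simulated counts, for the first comparison of each set of libraries. These counts were drawn without mouse or experiment effects, so that check does not cover such effects. Alternatives were other depth minimums, filters, ends, normalizations, DESeq2 1.42.0, limma, a replicate block and leaving out each library. Python 3.11.15, numpy 2.4.6, pandas 2.3.3 and matplotlib 3.10.9 did the rest.

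Named introns were, per comparison, up to 10 per direction with the smallest p among those called or otherwise the 3 with the smallest p, the 15 with the highest MSI, the 10 with the widest range over cell types, up to 3 per list and those with a U12-type start. Those described in full were picked from them after their values were seen, as was Tnpo2 intron 2, a neighbour. Libraries of 1 mouse are known from the labels for the 3 progenitor types (deviations of the same mouse correlated at -0.0215 to 0.0777), and libraries of 1 Lin-Kit+ experiment share a label; their deviations correlated at 0.165 to 0.218. The MEF and the Lin-Kit+ samples are separate samples in the labels, and for Lin-Kit+ cells p-values measure the spread between these samples, which may be technical. Reads are not independent molecules, so depth limits cover counting error only. One further intron that met the rule is not reported here.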

Additional observations from a re-analysis of the deposited data

Results flagged for a closer look

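The difference between MEP and CMP in the class measure (median log2 ratio of introns of 60 to 120 bases minus that of 500 to 5000 bases) was 0.002485 in WT mouse 3, far from the 0.0762 to 0.118 of the other 5 mice. Its gap to the nearest of the others was large against the range of the 6 values by Dixon's criterion, which chance meets in about 1 of 20 groups. The CMP library of that mouse had a median MSI of 2.01% over short introns and the MEP library 2.10%. Without this mouse the mean difference was 0.104.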

How the results depend on the processing

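The class difference between 60 to 120 and 500 to 5000 bases kept its direction across genes. Within genes it was reversed with gene means, at -0.676 in progenitors and -0.423 in MEF, and with gene medians in progenitors, at -0.118. With gene medians in MEF (-0.0232, exact p = 0.25), and without introns under other annotation (-0.0127 in progenitors, exact p = 0.1875, and -0.00109 in MEF, exact p = 1.0), it was also below 0 but did not pass the test. Leaving out each mouse gave 0.914 to 0.963, and each embryo 0.714 to 0.739. The cause of each change named here was not tested.

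For genotype, counting only the higher-coordinate end gave -0.122 in CMP, and leaving out a library gave -0.0667 to 0.0161 in CMP, -0.0909 to 0.0303 in GMP, -0.0446 to 0.0128 in MEP and -0.0909 to -0.00312 in MEF. For cell type, MEP minus CMP was 0.0709 with 20 reads, -0.0152 and -0.0272 with the lower and higher end, 0.0792 over the 3 WT mice and 0.0488 without introns under other annotation. MEP minus GMP was 0.168, 0.249, 0.235, 0.150 and 0.146 under the same changes, and GMP minus CMP -0.0503 with class means. Leaving out a mouse gave 0.0767 to 0.104, 0.135 to 0.187 and -0.106 to -0.0460.

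Hairpin values changed sign with the processing. The class measure was 0.805 to 0.975 in experiment 1 and 1.46 to 1.81 in experiment 2, so leaving out a library sets unequal mixes of the experiments against each other. Among introns with a mean of 5 or more end reads, the measure was 0.236 to 0.389 in experiment 1 and 0.386 to 0.504 in experiment 2. Without introns under other annotation the hairpin values were -0.0859 (WT hairpins minus WT control), -0.0495 (KO hairpins minus KO control) and -0.217 (KO hairpins minus WT control). WT hairpins minus WT control was -0.0754 with 20 reads, -0.0263 with 1 added before log2, -0.0388 with means and -0.251 and -0.233 with the lower and higher end. KO hairpins minus KO control was -0.0333 with 20 reads, 0.151 with 100 and -0.0415 with 1 added. KO hairpins minus WT control was -0.139, 0.256 and -0.102 under those 3, then -0.0594 with means, 0.0610 pooled, -0.236 and -0.221 with the ends, 0.0569 with 5 end reads and -0.00250 within genes. Leaving out a library gave -0.162 to 0.443, -0.342 to 0.413 and -0.174 to 0.428.

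Counts of called short introns changed as follows. KO against WT CMP had 1 with limma and 2 with DESeq2, and 0 to 3 without a library. WT GMP against CMP had 1 with no filter, 0 with separate trends, either end or limma, 5 with DESeq2, and 0 to 8 without a library. MEP against CMP had 18 with separate trends, 12 and 14 with the lower and higher end, 9 with limma, and 9 to 37 without a library. MEP against GMP had 23 with 20 reads, 29 with filterByExpr, 5 and 9 with the ends, 8 with limma, and 9 to 18 without a library. MEF against progenitors had 589 and 635 with the ends and 658 to 1194 without a library. With the replicate block, by experiment, KO hairpins against WT hairpins and against WT control had 1 each, and the first had 2 with DESeq2.

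Among named introns, counting only 1 end reversed Polr2e in KO MEP (0.0734, lower end), and with the higher end Vps16 in KO MEF (-0.16), Ptov1 in MEP against CMP (-0.0640), Hint2 in KO against WT control (0.35), Grk2 in WT hairpins against control (-0.0821) and Edc4 in KO against WT hairpins (-0.11). Leaving out a library gave -0.33 to 0.21, -0.11 to 0.35 and -0.0590 to 0.421 for the first 3, and -0.708 to 1.28 for Edc4. In KO against WT, deviations of same-numbered libraries correlated at 0.00744 to 0.0423 in CMP, 0.0288 to 0.0394 in GMP, 0.0224 to 0.0615 in MEP and -0.00067 to 0.0825 in MEF, none over 0.1. In CMP, GMP and MEP each lay above all different-numbered pairs (up to 0.005, 0.0162 and 0.0116), a hint from the data and not the design. The replicate block moved no call there.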

Other observations

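Intron 2 of Usf2-ps1, a noncoding pseudogene (chr7:30926754-30926836, minus strand, 83 bases), split the libraries in a way that matched no label. It was chosen after its values were seen. In 5 of 18 progenitor libraries it had 13 to 48 spliced reads and an MSI of 76.8% to 88.9%, and in the other 13 libraries 861 to 1663 spliced reads and an MSI of 9.15% to 14.2%. In MEF, 1 library had 6 spliced reads (91.5%) and 5 had 569 to 738. In Lin-Kit+ cells, 8 had 13 to 53 and 4 had 703 to 869. Reads across its ends did not split in the same way, at 208 to 439, 123 to 187 and 143 to 357 in the 3 sets. The low libraries included both genotypes, and in a pseudogene the reads can be shared with a near-identical copy, so the values are uncertain and their source was not tested.

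Collagen genes, of which 155 short introns had enough reads in MEF, held 2 at an MSI of 10% or more beside a median of 0.0982%. In the cell-type comparison of MEP with GMP, Man2b1, a lysosomal mannosidase, had 6.57%, 10.2% and 9.26% at intron 19 in WT MEP and 2.50%, 2.47% and 1.52% in WT GMP (log2 change 2.11 ± 0.41, adjusted p = 0.00329, edgeR). That call was lost with the lower end only (adjusted p = 0.565), with limma (0.0509), and without WT MEP 2 (0.0505) or WT GMP 3 (0.061). Eml3 intron 21, in the gene of a microtubule-binding protein, had 2.20%, 1.5% and 1.78% in WT MEP and 9.43%, 8.73% and 7.55% in WT CMP (-2.31 ± 0.38, adjusted p = 0.000464, edgeR), a call lost with the lower end only (0.126).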
